A study of Sus scrofa with 6 samples.

Results

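FASN, SCD, ACACA, ACLY, ME1 and MID1IP1 encode enzymes of fatty acid synthesis and desaturation and an activator of one of them, and their messenger RNA was followed across 3 tissues of the pig (Sus scrofa) in a pair of breeds, Berkshire and Korean native. The 6 genes were chosen by symbol, each symbol was carried by 1 Ensembl gene ID, and the files list 25322 gene IDs in all. Each of the 6 groups (Berkshire fat, liver and muscle, and Korean native fat, liver and muscle) is 1 RNA sequencing library, so a group has no replicate, and a tissue is represented by n = 2 libraries, 1 of each breed. No treatment, age, sex, fat depot or muscle is given by the labels, nor how many animals lie behind the 3 tissues of each breed. The p-values below therefore speak of these 6 libraries. Their spread is the departure from additive tissue and breed effects, in which breed-specific tissue differences, animal and technical variation cannot be told apart.

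Fatty acid synthesis begins with citrate that leaves the mitochondrion. ACLY (ATP citrate lyase) splits it into acetyl-CoA, ACACA (acetyl-CoA carboxylase alpha) turns acetyl-CoA into malonyl-CoA, and FASN (fatty acid synthase) joins these units into palmitate with electrons from NADPH, part of which comes from ME1 (cytosolic malic enzyme). SCD (stearoyl-CoA desaturase) then places a double bond in the finished saturated chain at the endoplasmic reticulum, and MID1IP1 (also called MIG12) is known from mammalian cells as a protein that activates acetyl-CoA carboxylase by helping it polymerise. In pigs adipose tissue is the main site of this pathway, whereas in humans and in birds the liver has that role.

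A library held between 5897407 and 7912093 counts on genes. Levels are CPM, a gene's count relative to its library's total after TMM scaling, which compare 1 gene between libraries and not 1 gene with another, since gene lengths were not used. The liver and muscle labels matched their markers. The 7 measured hepatocyte markers summed to at least 214500 CPM in liver and at most 66.9 CPM elsewhere, and the 6 measured skeletal muscle fibre markers to at least 92663 CPM in muscle and at most 58.2 CPM elsewhere. Of 12 listed adipocyte markers 7 had an ID, and they set fat apart less sharply. In Berkshire and Korean native they summed to 4753 and 3661 CPM in fat, 787 and 1466 CPM in muscle and 103 and 77.7 CPM in liver. PLIN1, CIDEC and LIPE (each at least 409 CPM in fat), PPARG and PLIN4 were higher in both fat libraries than in any liver or muscle library. GPD1 was higher in muscle (246 and 1145 CPM) than in fat (172 and 139 CPM), and RETN had 0 counts in fat. As these are bulk tissues, fewer cells of a type and less RNA per cell cannot be told apart. The 6 genes together took 2.28% of the counts on genes in Berkshire fat and 5.32% in Korean native fat, against 0.0836% and 0.172% in liver and 0.138% and 0.0356% in muscle.

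The first comparison asked how the tissues differ. FASN, SCD, ACACA, ACLY and ME1 were each highest in fat in both breeds, and liver and muscle lay far below. MID1IP1 did not share this order. Among the called genes of the 6 the log2 difference from fat was farthest from 0 for ME1 in liver and for FASN in muscle.

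Citrate lyase ACLY (ENSSSCG00000017421) stood at 495 CPM in Berkshire fat and 976 CPM in Korean native fat. Its level was 17.2 and 28.8 CPM in liver and 37.7 and 12.9 CPM in muscle, in the same order of breeds, with only 56 counts in Korean native muscle. The fat libraries lay above the other 4 by at least 13.1-fold within a breed. The log2 difference was -4.99 ± 0.70 (SE) between liver and fat (edgeR quasi-likelihood test, Benjamini-Hochberg adjusted p 0.0024) and -4.80 ± 0.71 between muscle and fat (edgeR adjusted p 0.006). Liver and muscle overlapped for ACLY and could not be ordered (log2 -0.18 ± 0.63, edgeR adjusted p 0.85).

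Carboxylase ACACA (ENSSSCG00000017694) had a graded profile. Its level was 625 CPM in Berkshire fat and 1029 CPM in Korean native fat, 241 and 208 CPM in liver and 69.0 and 27.9 CPM in muscle. No pair of tissues overlapped. ACACA was lower in liver than in fat by a log2 difference of -1.92 ± 0.51 (edgeR adjusted p 0.03), the smallest such difference among the called genes of the 6. Its call ended without Korean native fat (-1.09, adjusted p 0.26), Berkshire liver (-1.90, adjusted p 0.069) or Korean native liver (-1.95, adjusted p 0.082) in the same edgeR test. Muscle lay lower still, at -4.17 ± 0.57 against fat (edgeR adjusted p 0.0044). Liver stood above muscle by 2.25 ± 0.52 (edgeR adjusted p 0.015), a call that ended without Korean native muscle (1.58, adjusted p 0.058).

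FASN (ENSSSCG00000029944), the synthase itself, stood at 7148 CPM in Berkshire fat and 7518 CPM in Korean native fat, so the breeds lay close together in fat. In liver its level was 226 and 535 CPM, and in muscle 361 and 60.4 CPM. Berkshire fat was 31.6-fold above Berkshire liver and 19.8-fold above Berkshire muscle, whereas Korean native fat was 14.1-fold above its liver and 124-fold above its muscle. Log2 differences were -4.20 ± 0.91 for liver against fat (edgeR adjusted p 0.014) and -5.25 ± 0.98 for muscle against fat (edgeR adjusted p 0.015). Without Korean native fat the first was -3.74 (adjusted p 0.075). The liver and muscle libraries overlapped, and liver against muscle did not pass with all libraries (1.05 ± 0.90, edgeR adjusted p 0.41). It did pass without Berkshire liver (2.32, adjusted p 0.049) or without Berkshire muscle (2.88, adjusted p 0.018).

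SCD (ENSSSCG00000010554), which makes oleate from stearate, stood at 5332 CPM in Berkshire fat and 24349 CPM in Korean native fat, where it alone took 3.70% of all counts on genes. Liver stood at 546 and 1461 CPM and muscle at 926 and 158 CPM. Both fat libraries lay above the other 4. SCD was lower in liver than in fat by -3.83 ± 1.10 on the log2 scale (edgeR adjusted p 0.038), but without Korean native fat the value was -1.99 (adjusted p 0.34). In muscle against fat the log2 value was -4.39 ± 1.22 with an edgeR adjusted p of 0.051, just outside the threshold. It passed in 10 of 12 alternatives, among them DESeq2 (adjusted p 0.012) and limma-voom (adjusted p 0.019), and did not pass without Korean native fat (-3.20, adjusted p 0.11) or Korean native muscle (-2.72, adjusted p 0.061). Liver and muscle overlapped for SCD (0.56 ± 1.10, edgeR adjusted p 0.73), and without Berkshire muscle the value was 3.41 (adjusted p 0.012).

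For ME1 (ENSSSCG00000004454), a source of NADPH, the level was 542 and 1079 CPM in fat, 94.4 and 100.1 CPM in muscle and 16.0 and 6.63 CPM in liver. Muscle thus lay between fat and liver in both breeds, with no overlap, an order that differs from that of ACACA. Liver was lower than fat by -6.17 ± 0.66 on the log2 scale (edgeR adjusted p 7.7e-04) and lower than muscle by -3.11 ± 0.57 (edgeR adjusted p 0.006). Muscle was lower than fat by -3.06 ± 0.56 (edgeR adjusted p 0.014). This last call ended without Korean native fat (-2.17, adjusted p 0.083) or Korean native muscle (-3.11, adjusted p 0.071).

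MID1IP1 (ENSSSCG00000025447), the carboxylase activator, did not follow the enzymes. Its level was 12.5 CPM in Berkshire fat, 13.8 CPM in Berkshire liver and 20.7 CPM in Berkshire muscle, and 99.4, 18.4 and 124.6 CPM in the same Korean native tissues. The 2 high libraries were Korean native fat and muscle. Fat overlapped both other tissues, and both muscle libraries lay above both liver libraries. No tissue difference passed in edgeR. The log2 values were -1.09 ± 0.62 for liver against fat (adjusted p 0.24), 0.47 ± 0.57 for muscle against fat (adjusted p 0.59) and -1.56 ± 0.62 for liver against muscle (adjusted p 0.092). Without Berkshire liver both liver values passed (-2.34, adjusted p 0.008, and -2.86, adjusted p 0.002), and without Korean native liver the first turned to 0.03. Total counts also gave a call for liver against fat (-2.13, adjusted p 0.026), and liver against muscle passed in limma-voom (-1.96, adjusted p 0.03) and without either fat library (-1.72, adjusted p 0.042).

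**Figure D1:**
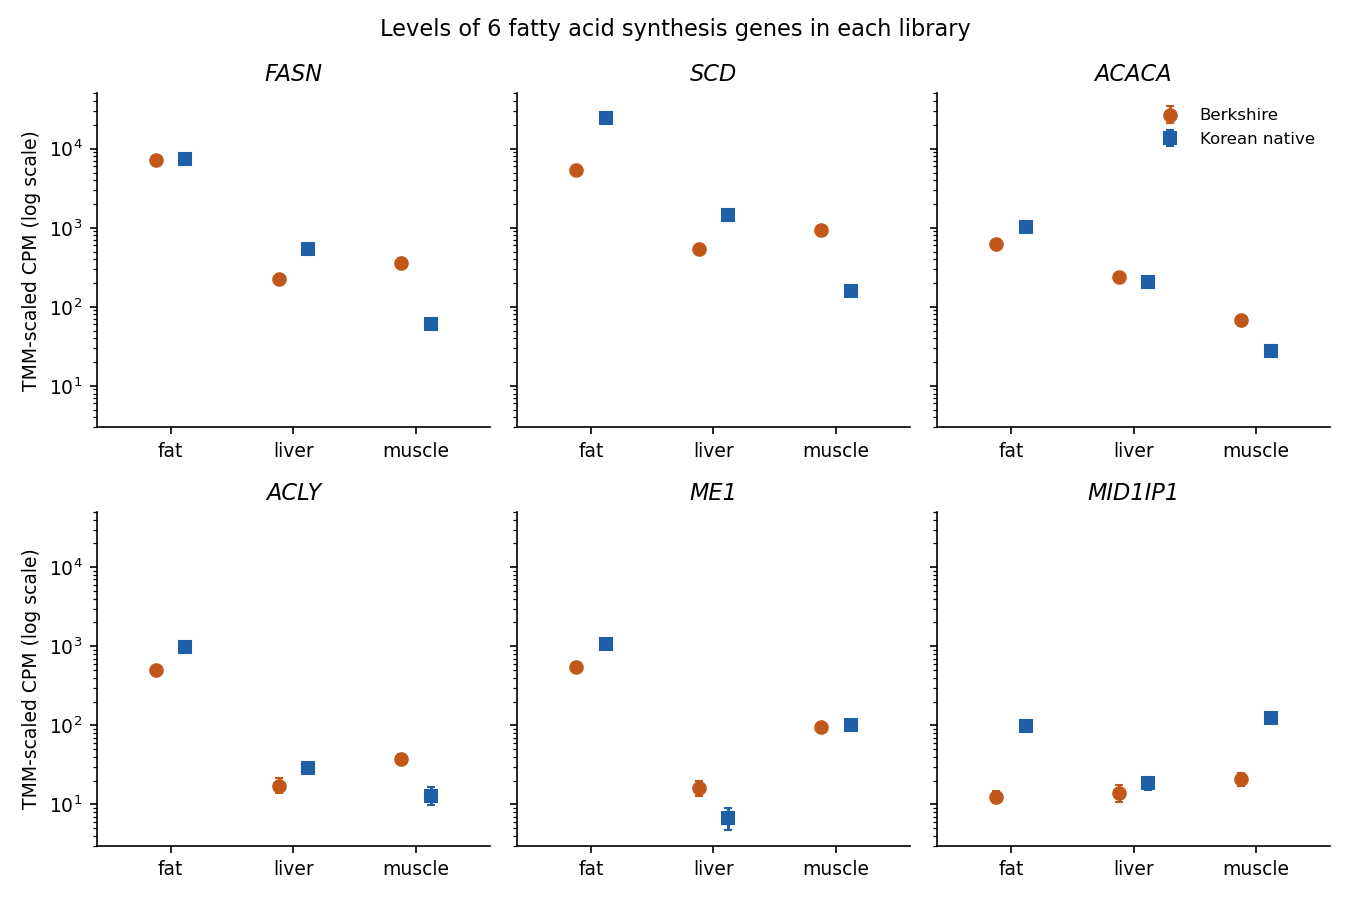
TMM-scaled CPM (log axis) of each gene in the 6 libraries, with circles for Berkshire, squares for Korean native and bars for the exact 95% Poisson interval of the count. For FASN, SCD, ACACA, ACLY and ME1 both fat libraries lie above the other 4, and for MID1IP1 the high libraries are Korean native fat at 99.4 CPM and Korean native muscle at 124.6 CPM.

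Counted together, 5 of the 6 genes were lower in liver than in fat and 1 did not pass, where 13.5% of the 13810 tested genes were lower and 15.2% higher. In muscle against fat 4 were lower and 2 did not pass, where 6.43% of all tested genes were lower and 9.95% higher. The median log2 difference of the 6 was -4.02 in liver and -4.28 in muscle, beside 0.06 and -0.05 over all tested genes. These contrasts share the fat libraries and are not independent. Between liver and muscle 1 gene was higher in liver (ACACA), 1 was lower (ME1) and 4 did not pass, where 18.6% of all tested genes were higher and 17.4% lower. All 6 genes passed the filter on low counts. Without Korean native fat the count for liver against fat was 2 (ACLY and ME1), and the count for liver against muscle lay between 1 (without Korean native muscle) and 4 (without Berkshire liver or Berkshire muscle).

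**Figure D2:**
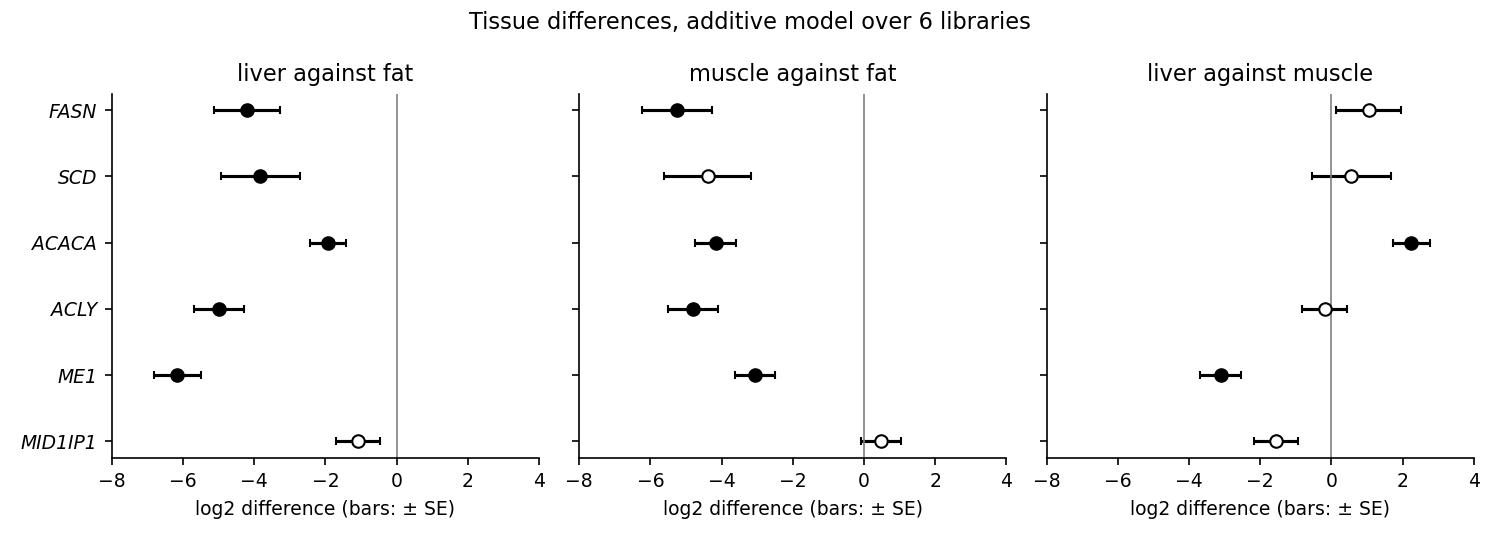
Log2 difference of each gene in 3 tissue contrasts, from the additive model over 6 libraries, with bars of 1 SE and filled circles where the edgeR adjusted p was under 0.05. ME1 in liver against fat is the farthest from 0 at -6.17, and MID1IP1 is open in all 3 contrasts.

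The other genes of the pathway were read from 7 lists by role. Of 86 listed genes 61 had an ID and 59 were tested, and the remaining listed genes, among them ACACB, THRSP, SREBF1 and ELOVL6, were not analysed here. Of the 59, 13 were lower and 11 higher in liver than in fat (median log2 -0.01), and 17 were lower and 4 higher in muscle than in fat (median -0.58). As a share, 40.7% passed in liver and 35.6% in muscle, higher and lower genes combined, beside 15.2% higher and 13.5% lower in liver and 9.95% higher and 6.43% lower in muscle over all tested genes. Leaving out Korean native fat gave 14 and 12 called genes in place of 24 and 21, leaving out Berkshire fat gave 12 for muscle, and scaling by total counts gave 37 for each.

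Of the 8 tested genes of NADPH supply 5 were lower in liver and 3 did not pass, and 6 were lower in muscle and 2 did not pass (median log2 -1.84 and -2.95), where 13.5% and 6.43% of all tested genes were lower. TALDO1 (transaldolase) was lower in liver by -2.21 ± 0.33 (edgeR adjusted p 0.0033) and in muscle by -2.84 ± 0.34 (edgeR adjusted p 0.0026). TKT (transketolase) stood at 632 ± 2.74 CPM (SD, n = 2) in fat and 52.3 ± 18.2 CPM in muscle (log2 -3.60 ± 0.43, edgeR adjusted p 0.0026). IDH1 (cytosolic isocitrate dehydrogenase) stood at 314 ± 2.52 CPM in fat and 252 ± 50.1 CPM in liver, where the difference did not pass (log2 -0.33 ± 0.31, edgeR adjusted p 0.47). In muscle IDH1 was lower, at 29.6 ± 3.40 CPM (log2 -3.41 ± 0.34, edgeR adjusted p 0.0011). Of the mitochondrial malic enzymes, ME3 was lower in liver than in fat (log2 -2.53 ± 0.41, edgeR adjusted p 0.0045), and ME2 passed in no tissue contrast, with levels between 15.4 and 27.2 CPM.

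Among 8 genes of acetyl-CoA and citrate supply 3 were lower and 1 higher in liver, and 4 were lower and 2 higher in muscle. Over all tested genes 13.5% were lower and 15.2% higher in liver, and 6.43% lower and 9.95% higher in muscle. SLC25A1, the mitochondrial citrate carrier that feeds ACLY, stood at 192 ± 2.80 CPM in fat, 95.6 ± 22.3 CPM in liver and 21.2 ± 2.30 CPM in muscle. Its difference between liver and fat (log2 -1.02 ± 0.30, edgeR adjusted p 0.042) lost its call when any 1 of the 4 fat and liver libraries was left out, with values of -0.84 to -1.20. GOT1 (cytosolic aspartate aminotransferase) was higher in liver at 262 ± 117 CPM against 37.2 ± 2.11 CPM in fat (log2 2.81 ± 0.50, edgeR adjusted p 0.0062).

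The steps after palmitate split by enzyme. Of 7 tested genes of elongation and desaturation 3 were higher and 2 lower in liver than in fat, and 2 were lower in muscle. Of all tested genes 15.2% were higher and 13.5% lower in liver, and 6.43% were lower in muscle. HSD17B12 was among the lower genes, at 95.7 ± 11.2 CPM in liver against 307 ± 35.9 CPM in fat (log2 -1.67 ± 0.33, edgeR adjusted p 0.0094). FADS1 and FADS2, the desaturases of polyunsaturated chains, were higher in liver than in fat by 3.97 ± 0.74 and 3.49 ± 0.53 on the log2 scale (edgeR adjusted p 0.0079 and 0.0034), the opposite direction to SCD. HACD3, a dehydratase of chain elongation, was also higher in liver, at 313 ± 89.8 CPM against 40.3 ± 0.362 CPM (log2 2.95 ± 0.37, edgeR adjusted p 0.0015). ELOVL5, an elongase of polyunsaturated chains, was lower in muscle than in fat (log2 -3.11 ± 0.55, edgeR adjusted p 0.013). SCD5, the second desaturase of this type, reached at most 10.4 CPM in any library, and its log2 differences of -1.06 ± 0.70 in liver and -0.93 ± 0.73 in muscle did not pass (edgeR adjusted p 0.30 and 0.40).

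Of 10 genes that activate fatty acids or bind them to glycerol 2 were lower and 3 higher in liver, where 13.5% and 15.2% of all tested genes were. AGPAT1, an acyltransferase of the second esterification step, was 433 ± 45.9 CPM in fat and 13.0 ± 1.21 CPM in liver (log2 -5.06 ± 0.41, edgeR adjusted p 2.4e-04). LPIN1, a phosphatidate phosphatase, was lower in liver by -2.76 ± 0.32 (edgeR adjusted p 0.0011). ACSL3, an acyl-CoA synthetase, was higher in liver by 3.85 ± 0.72 (edgeR adjusted p 0.0077).

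Of 13 transcriptional regulators 1 was lower and 3 higher in liver, and 3 were lower and 1 higher in muscle. The shares over all tested genes were 13.5% lower and 15.2% higher in liver, and 6.43% lower and 9.95% higher in muscle. PPARG, the nuclear receptor that drives fat cell differentiation, stood at 164 and 138 CPM in fat and at 0.200 and 0.994 CPM in liver (edgeR adjusted p 4.1e-04), where it had at most 6 counts. MLXIPL (ChREBP, a glucose-responsive factor that induces lipogenic genes) was 200 ± 36.6 CPM in fat and 273 ± 18.5 CPM in liver, a difference that did not pass (log2 0.47, edgeR adjusted p 0.34), and 20.1 ± 9.57 CPM in muscle (log2 -3.35 ± 0.38 against fat, edgeR adjusted p 0.0019). INSIG1, which holds SREBP precursors in the endoplasmic reticulum, was higher in liver than in fat (log2 1.60 ± 0.38, edgeR adjusted p 0.02), but not with total counts (0.61, adjusted p 0.22), without Korean native fat (1.15, adjusted p 0.20) or without Korean native liver (1.09, adjusted p 0.17). The 6 tested genes of the kinase system that restrains the carboxylase (AMP-activated kinase subunits and its activator STK11) had a median log2 difference of 0.20 in liver and 0.02 in muscle against fat. PRKAB2, a regulatory subunit, was higher in muscle than in fat, at 101 ± 37.3 against 5.26 ± 0.461 CPM (log2 4.26 ± 0.43, edgeR adjusted p 0.0012).

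The mitochondrial route to fatty acids makes the precursor of lipoate. Of its 7 genes 1 passed in liver against fat, where 15.2% of all tested genes were higher and 13.5% lower. That gene was OXSM (3-oxoacyl-ACP synthase), at 14.1 ± 2.74 and 6.14 ± 0.0400 CPM (log2 1.18 ± 0.34, edgeR adjusted p 0.041). OXSM passed in 6 of 12 alternatives, and with total counts the value was 0.17 (adjusted p 0.68).

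The second comparison was of the breeds in each tissue. It rests on 1 library against 1, so no test was made. Intervals in brackets are exact 95% intervals of the ratio for counting error, and they hold neither animal nor library variation. A gene was counted when either library of the pair reached 5 CPM.

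In fat every one of the 6 genes had a higher level in the Korean native library, by 1.05-fold to 7.93-fold. MID1IP1 was 7.93-fold higher (6.59 to 9.61) and SCD 4.57-fold higher (4.52 to 4.61). ME1 was 1.99-fold, ACLY 1.97-fold and ACACA 1.65-fold higher. FASN was 1.05-fold higher (1.04 to 1.06), and with total counts its log2 ratio turned from 0.07 to -0.01. Thus 2 of 6 genes reached 2-fold upward and 0 downward, where 4.68% of 10139 genes did so upward and 3.71% downward. Among the 7 adipocyte markers the direction was mostly the other way: PLIN1 (1096 CPM in Berkshire, 621 CPM in Korean native), CIDEC (858 and 409 CPM) and LIPE (1035 and 501 CPM) were lower in the Korean native library, PPARG and GPD1 were at most 1.24-fold lower, and PLIN4 was 1.30-fold higher. Summed, the whole marker list came to 4753 CPM in Berkshire and 3661 CPM in Korean native fat. Macrophage markers summed to 130.0 CPM in Berkshire and 254 CPM in Korean native fat, fibroblast markers to 13204 and 18845 CPM, and endothelial markers to 937 and 679 CPM. The part of these cells in the fat values was not tested.

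In liver SCD was 2.67-fold higher (2.56 to 2.79) and FASN 2.36-fold higher (2.21 to 2.53) in the Korean native library, and ACLY was 1.68-fold higher (1.29 to 2.20). ME1 went the other way, 2.41-fold lower (1.63 to 3.62) on 80 and 40 counts. ACACA was 1.16-fold lower (1.07 to 1.25), and for MID1IP1 the interval of its 1.33-fold ratio included 1 (0.978 to 1.83). So 2 genes reached 2-fold upward and 1 downward, where 6.18% and 5.82% of 10331 genes did. Adipocyte markers were low in both livers, summing to 103 and 77.7 CPM, most of it GPD1.

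In muscle FASN was 5.98-fold lower (5.25 to 6.82), SCD 5.85-fold lower (5.40 to 6.34), ACLY 2.92-fold lower (2.16 to 4.00) and ACACA 2.47-fold lower (2.01 to 3.06) in the Korean native library. ME1 stood level at 1.06-fold (0.931 to 1.21), and with total counts its log2 ratio turned from 0.08 to -0.23. MID1IP1 was 6.02-fold higher (4.91 to 7.44). Hence 4 of the 6 were at least 2-fold lower and 1 higher, where 10.2% and 10.7% of 10142 genes were.

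Of the 7 measured fat cell markers 4 were lower in Korean native muscle, 1 stood level, 1 was higher and 1 had almost no counts. PLIN1 (a coat protein of lipid droplets) had 95.7 CPM in Berkshire and 18.9 CPM in Korean native muscle, CIDEC (a droplet fusion protein) 65.5 and 13.1 CPM, LIPE (hormone-sensitive lipase) 80.0 and 19.6 CPM and PPARG 17.0 and 6.00 CPM, so these 4 were 2.84-fold to 5.06-fold lower. PLIN4, at 282 and 263 CPM, stood level like ME1, and GPD1 (glycerol-3-phosphate dehydrogenase, also made by muscle fibres) was 4.65-fold higher. RETN had at most 0.183 CPM. With GPD1 included the 7 markers summed to 787 and 1466 CPM. Fibroblast markers summed to 21159 CPM in Berkshire and 4739 CPM in Korean native muscle, and macrophage markers to 89.9 and 32.1 CPM. Skeletal muscle fibre markers were higher in the Korean native library, at 92663 and 149517 CPM in the same order, and endothelial markers stood at 445 and 398 CPM. The part of these cells in the muscle values was not tested.

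**Figure D3:**
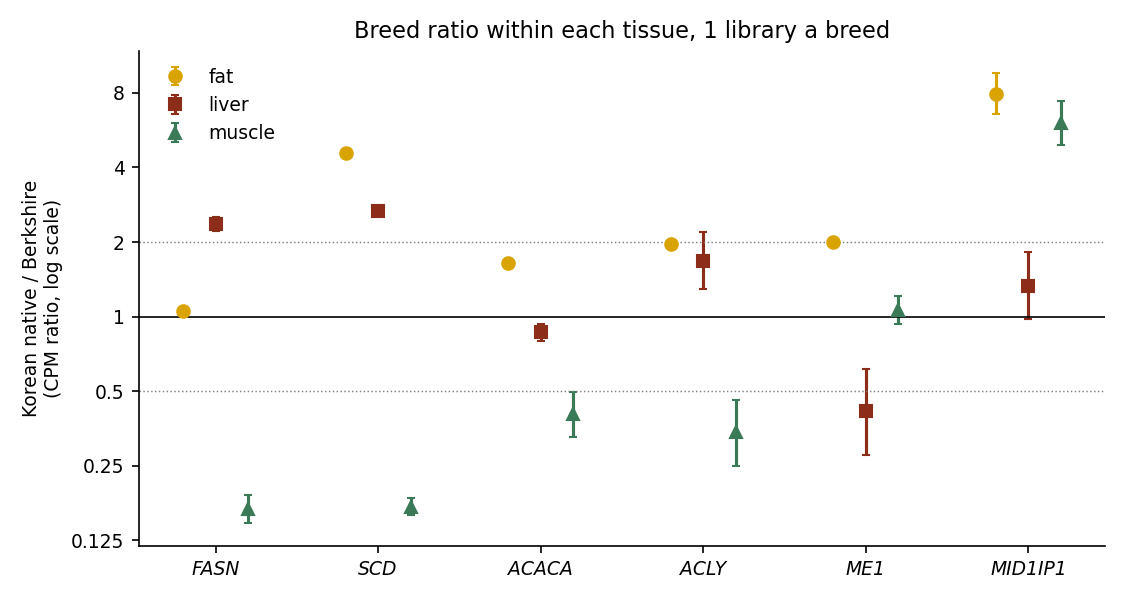
Ratio of Korean native to Berkshire CPM (log axis) of each gene in fat, liver and muscle, with 1 library a breed, bars for the exact 95% counting interval and dotted lines at 2-fold. Muscle points of FASN, SCD, ACACA and ACLY lie below 0.5, and fat points of SCD and MID1IP1 lie above 2.

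**Figure D4:**
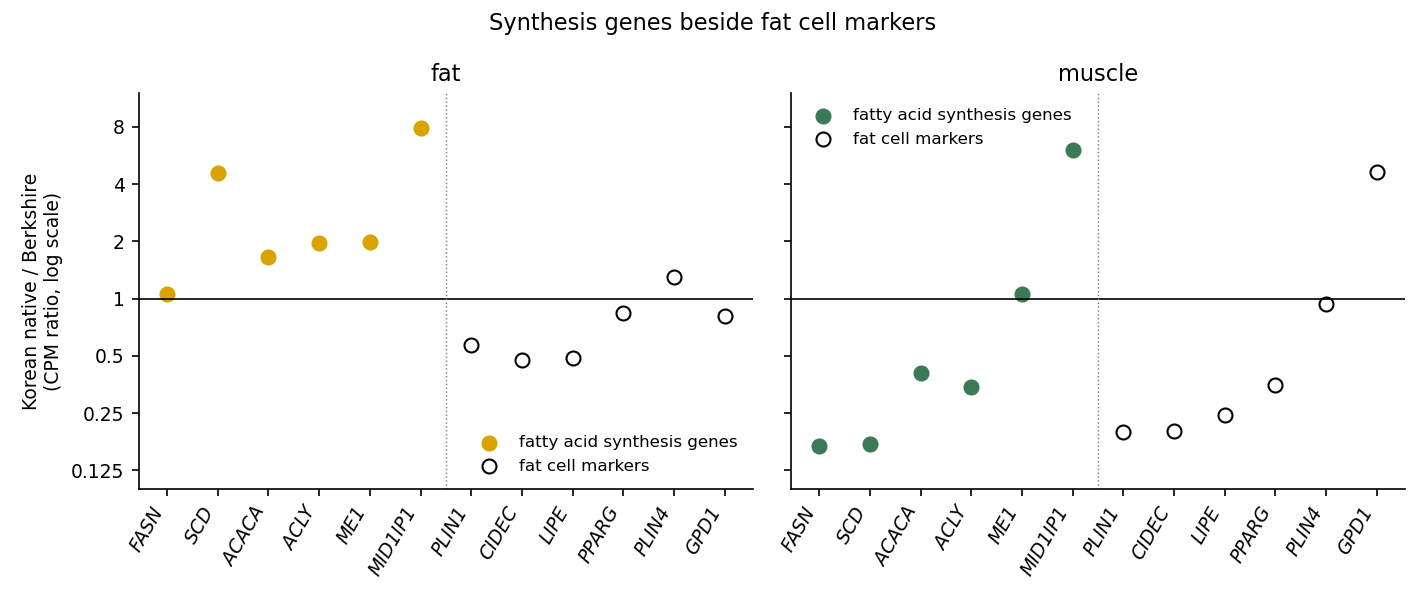
Ratio of Korean native to Berkshire CPM (log axis) of the 6 synthesis genes (filled) and of 6 fat cell markers (open) in fat and in muscle, with RETN left out for its low counts. In fat all 6 synthesis genes lie above 1 (FASN at 1.05), and so does PLIN4 at 1.30. PLIN1, CIDEC, LIPE, PPARG and GPD1 lie below 1 in fat. In muscle PLIN1, CIDEC, LIPE and PPARG lie below 0.5 with FASN, SCD, ACACA and ACLY. Of the other plotted markers in muscle, PLIN4 lies at 0.932 and GPD1 at 4.65.

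Taken over the 3 tissues in the additive model, 0 of the 6 genes passed between breeds in edgeR, where 0.109% of all tested genes did. At an unadjusted edgeR p under 0.05 there was 1, MID1IP1, where 1103 of the 13810 tested genes passed that rule. MID1IP1 was higher in the Korean native library in 3 of 3 tissues (log2 2.06 ± 0.52, edgeR adjusted p 0.40), though in liver the counting interval of its ratio included 1. DESeq2 called it (adjusted p 0.032), limma-voom did not, and edgeR did so without Berkshire or Korean native liver (log2 2.79, adjusted p 0.0065 and 0.006). FASN, SCD, ACACA, ACLY and ME1 had log2 values between -0.35 and 0.58 with opposite ratios in different tissues. Whether the breed ratio differs between tissues could not be tested, since a model with that term has as many terms as libraries. Of the 59 other pathway genes 0 passed in edgeR, DESeq2 or limma-voom. In edgeR 3 of the 59 had an unadjusted p under 0.05, beside 1103 of the 13810 tested genes.

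The other pathway genes were read the same way within a tissue. In fat 1 of 57 was higher (ACSL3, 12.2 and 33.6 CPM in Berkshire and Korean native) and 1 lower (GPAT4, 286 and 138 CPM), or 1.75% each way beside 4.68% and 3.71% of all genes. In liver 3 of 56 were higher and 6 lower, or 5.36% and 10.7% beside 6.18% and 5.82% of all genes. ACSL3 stood at 80.4 and 788 CPM, GPAM (glycerol-3-phosphate acyltransferase) at 159 and 323 CPM and CBR4 at 25.8 and 59.7 CPM. FADS1 stood at 555 and 102 CPM and FADS2 at 409 and 83.8 CPM, against the direction of SCD in the same 2 livers, and ELOVL2, GPAT3, GPAT4 and DGAT1 were the other 4 lower genes. In muscle 1 of 57 was higher (CBR4, 9.88 and 28.1 CPM) and 3 were lower. These shares were 1.75% and 5.26% beside 10.7% and 10.2% of all genes. The lower genes were ELOVL5 (32.4 and 9.69 CPM), PPARG (17.0 and 6.00 CPM) and SCD5 (7.14 and 1.38 CPM). SCD5 rests on few counts, since 3 counts amount to 0.692 CPM in Korean native muscle. MLXIPL was within 1.30-fold between breeds in fat and in liver, and in muscle it stood at 26.9 CPM in Berkshire and 13.4 CPM in Korean native, 2.01-fold lower in CPM and just under 2-fold with the prior count. PNPLA3, a lipid droplet protein induced with lipogenesis, stood at 7.15 and 28.8 CPM in fat, 0.400 and 42.3 CPM in liver and 1.28 and 0.692 CPM in muscle. In Berkshire liver this is under the 0.600 CPM that 3 counts amount to there, so no fold is given.

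By profile over the 6 libraries, FASN and SCD each had the other and ACLY among their 3 nearest genes. Likeness was measured as the root mean square difference of centred log2 CPM over n = 6 libraries, which share depth and scaling, among 6310 other genes with a symbol and a mean of at least 10 CPM. The nearest gene to FASN was ACLY (0.66), followed by RETSAT (retinol saturase, 0.66) and SCD (0.70). The nearest to SCD was FASN, then ACLY (0.77) and RETSAT (0.83). These differences were similar to that of MID1IP1 to its nearest gene (0.72) and larger than that of ACACA to its own (0.32).

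ACACA lay nearest to ABHD15 (0.32), PC (pyruvate carboxylase, which replenishes mitochondrial oxaloacetate, 0.37) and TKT (0.42), and 12 of the 6310 genes were closer to FASN than ACACA was. ACLY was nearest to SFRP5 (0.51), ACKR4 (0.65) and FASN. ME1 was nearest to ELN (elastin, 0.45), PLIN4 (0.53) and DMRT2 (0.59), and 516 genes were closer to FASN than ME1 was. MID1IP1 had none of the other 5 among its nearest genes, which were FBXL17 (0.72), GRK4 (0.78) and DIAPH1 (0.81), and 4979 of the 6310 genes were closer to FASN than MID1IP1 was.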

How the data were processed

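The authors deposited, for each library, whole-number read counts by Ensembl gene ID, not normalized. Per the labels' protocols, frozen tissue was extracted with Trizol and libraries were made with the Illumina TruSeq RNA kit. Alignment with TopHat to Sscrofa10.2 and counting with HTSeq 0.5.3p3 are named in the submitters' processing notes. Which annotation, strand setting and counting mode were used is not given in the sources used here. An entry named ambiguous held 0.354% to 0.809% of a file's total, and its reads are in no gene's count. Where an overlapping transcript, on either strand, is not among the listed genes, its reads cannot be told apart from those of the gene. Closing entries that name no gene (64.7% to 67.4% of a file's total) were left out. Symbols came from a supplied table that matched 11804 of 25322 IDs.

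Counts were fitted with edgeR 4.0.16 in R 4.3.3 in 1 model with additive tissue and breed terms on 6 libraries (TMM factors, filterByExpr, 13810 genes, 2 residual degrees of freedom), followed by two-sided quasi-likelihood tests. A gene was called at a Benjamini-Hochberg adjusted p under 0.05 over all tested genes. The departure from additivity, pooled in part across genes, is the only spread this model has. Each gene's dispersion was moderated toward a trend over all tested genes. The tests thus rest on that sharing and not on a gene's own 2 residual degrees of freedom alone. Each SE is the absolute log2 value over the square root of F. Breed ratios within a tissue used a prior count of 2 for the 2-fold count and no test. Poisson and ratio intervals (95%, exact) cover counting error only, and 3 counts correspond to 0.294 to 0.692 CPM. DESeq2 1.42.0, limma-voom (limma 3.58.1), other scalings, no filter, 1 factor and each library left out were alternatives. The fit was also run on simulated counts with additive effects and the same dispersion for every gene. That run does not cover genes whose breed ratio differs between tissues.

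The members, lists and rules were chosen with earlier results of these data known. Beside the 6 genes, the text names from each list up to 4 called genes of highest mean CPM with an absolute log2 difference of at least 1, paralogs (SCD5, ME2, ME3), PPARG, INSIG1, MLXIPL and PNPLA3, pathway genes 2-fold apart within a tissue, and the 3 nearest profiles of each gene. Not every gene so selected is printed.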

Additional observations from a re-analysis of the deposited data

Results flagged for a closer look

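FASN and SCD had breed ratios of at least 2-fold in opposite directions in different tissues. The log2 ratio of Korean native to Berkshire was 1.24 in liver and -2.57 in muscle for FASN, and 2.19 in fat and -2.55 in muscle for SCD. With 1 library a breed and tissue, the difference between these ratios was not tested. Of the 7 measured adipocyte markers, PLIN1, CIDEC, LIPE and PPARG were lower in Korean native muscle, PLIN4 stood level, GPD1 was 4.65-fold higher and RETN had almost no counts, and the list summed to 787 CPM in Berkshire and 1466 CPM in Korean native muscle. Their part in the ratios was not tested.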

How the results depend on the processing

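The tissue contrasts were blocked by breed in the additive model, and the labels give no replicate number that could pair libraries further. Scaling by total counts shifted the median log2 difference of all tested genes to -0.94 (liver against fat) and -0.98 (muscle against fat). Called genes then numbered 6955 in place of 3959, 16.6% of them higher in place of 53.0%, and 6020 in place of 2262, 12.7% higher in place of 60.7%. It also turned MID1IP1 in muscle against fat (-0.49), the breed values over tissues of ACLY (-0.011) and ME1 (-0.16), and the within-tissue breed ratios of FASN in fat (-0.013) and ME1 in muscle (-0.23). Breed calls over all genes were 15, against 94 in DESeq2, 87 without the filter and 0 with breed as the only factor, and 1 of the 6 genes was called in DESeq2. ME1 between breeds was -0.0025 in DESeq2, and with breed as the only factor FASN was 0.069 and ACACA 0.44.

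With each library left out in turn, called genes ranged from 2452 to 4823 (liver against fat), 866 to 2652 (muscle against fat) and 16 to 83 (breeds), and called genes among the 6 from 2 to 5 (liver against fat), 1 to 4 (liver against muscle) and 0 to 1 (breeds). Log2 ranges that crossed 0 were, for MID1IP1, -2.34 to 0.034 (liver against fat) and -0.090 to 1.35 (muscle against fat). Between liver and muscle they were -0.36 to 2.88 for FASN, -0.95 to 3.41 for SCD and -1.20 to 1.22 for ACLY. Between breeds they were -1.24 to 0.66 for FASN, -0.56 to 1.81 for SCD, -0.75 to 0.26 for ACACA, -0.39 to 0.87 for ACLY and -0.54 to 0.54 for ME1. The cause was not tested. Leaving out a library leaves 1 sample in its tissue, assumed to vary like the others. Depth limits ME1 in liver, ACLY in Korean native muscle and MID1IP1 most, with as few as 40, 56 and 69 counts in a library.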
